A study of Homo sapiens with 4 samples.

Results

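Kinesins and centromere proteins were followed in SCC13 cells, a human skin cancer line of squamous origin. The members were the rows of the count table named KIF or KIFC plus a number, or CENP plus a letter, without pseudogene and antisense names. The rule gave 67 of 60617 genes: 12 mitotic kinesins, 17 transport kinesins, 12 other kinesins and 26 genes with CENP names. PolyA RNA was sequenced from 2 libraries of cells carrying a lentiviral scrambled shRNA (shScr, control) and 2 libraries of cells carrying a lentiviral shRNA against CELF2 (knockdown). The genotype label is WT in every library, and both groups were infected with virus and grown in CnT-07 medium. Neither the number of shRNAs against CELF2 nor separate cultures for the 2 libraries of a group are stated, so each p-value reflects the spread of these samples alone, and that spread may be technical.

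Kinesins are motor proteins that use ATP to move along microtubules or to shorten them. Mitotic kinesins build the spindle, move chromosomes and organise the midzone between separating chromosomes, whereas transport kinesins carry vesicles, mitochondria and other cargo in cells that are not dividing as well as in those that are. CENP proteins mark the centromere and build the inner part of the kinetochore, the plate through which a chromosome holds the spindle. Transcripts of many mitotic kinesins and CENP genes rise before division and are low in resting cells, and basal keratinocytes and squamous carcinoma cells are dividing cells.

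Promoters are shown first because the mitotic and transport kinesins differ in the letters near their start sites. In RefSeq's promoter table (GRCh38.p14, 250 bases before to 50 bases after the start of a gene), 54 of the 67 members had an entry. Each window was searched on both strands for the cell cycle genes homology region (CHR, searched as TTTGAA or TTCGAA), an element through which cell cycle genes are known to be repressed in resting cells. It was also searched for the CCAAT box (CCAAT), which binds the factor NF-Y. The letters of the CHR and of the CCAAT box do not overlap with each other. The stretches below are the 150 bases before the start, 5′ to 3′ on the strand of the gene, with CHR and CCAAT letters in capitals, and positions count back from -1, the last base before the start.

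KIF11, a mitotic kinesin, chr10:92592980-92593129, plus strand, with a CHR at -28 and a CCAAT box at -53:
KIF11: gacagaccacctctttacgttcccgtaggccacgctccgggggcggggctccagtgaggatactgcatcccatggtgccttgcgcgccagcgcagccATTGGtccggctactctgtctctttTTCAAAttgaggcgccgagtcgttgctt
KIF4A, a mitotic kinesin, chrX:70289954-70290103, plus strand, with a CHR at -34 and a CCAAT box at -58:
KIF4A: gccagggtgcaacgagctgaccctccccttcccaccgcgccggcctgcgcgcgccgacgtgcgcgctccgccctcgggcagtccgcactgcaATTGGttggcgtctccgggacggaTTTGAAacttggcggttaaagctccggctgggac
KIF18B, a mitotic kinesin, chr17:44947774-44947923, minus strand, with CCAAT boxes at -55 and -32:
KIF18B: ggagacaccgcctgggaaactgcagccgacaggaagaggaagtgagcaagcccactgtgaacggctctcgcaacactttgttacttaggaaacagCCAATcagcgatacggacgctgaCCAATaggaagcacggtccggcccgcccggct
CENPF, a kinetochore protein, chr1:214603045-214603194, plus strand, with CCAAT boxes at -94, -58 and -33:
CENPF: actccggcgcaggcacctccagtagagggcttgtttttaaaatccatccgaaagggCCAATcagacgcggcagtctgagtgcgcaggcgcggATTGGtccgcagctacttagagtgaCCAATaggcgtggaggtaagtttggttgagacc
KIF5B, a transport kinesin, chr10:32056426-32056575, minus strand, with a CHR at -140 and a CCAAT box at -59:
KIF5B: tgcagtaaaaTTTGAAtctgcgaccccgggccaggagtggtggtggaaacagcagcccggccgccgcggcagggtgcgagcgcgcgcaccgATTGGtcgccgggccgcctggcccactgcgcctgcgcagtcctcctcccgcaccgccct

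In KIF11 and KIF4A the first letters of the CHR and of the CCAAT box lay 25 and 24 bases apart, against 81 bases in KIF5B. KIF18B had its CHR 3 bases after the start and CENPF 41 bases after it, outside the stretches shown. Of the 12 mitotic kinesin windows, 10 held a CHR (83.3%), as did 7 of 21 CENP windows (33.3%), 1 of 9 of the other kinesins (11.1%) and 1 of 12 transport kinesins (8.33%). Over all 27305 promoters the share was 16.6%. KIF5B was thus the only transport kinesin window with a CHR, and the stretch of it shown is not typical of its class. A CCAAT box stood in 10 of 12 mitotic kinesin windows and in 3 of 12 transport kinesin windows (25.0%), against 35.7% of all promoters. Both motifs together were found in 9 of 12 mitotic kinesin windows and in 6.58% of all promoters. A CHR within 40 bases of the start, a distance chosen after the positions were seen, stood in 10 of 12 mitotic kinesin windows, in 0 of 12 transport kinesin windows and in 4.35% of all promoters. Such matches describe letters only. The windows cover genes with too few counts to be tested as well. Among the mitotic kinesins this was KIF4B, a copy of KIF4A, whose window held both motifs. Among the CENP genes these were CENPS-CORT, CENPVL1, CENPVL2 and CENPVL3, of which only CENPVL3 held a CHR. The mitotic kinesins KIF2C and KIF20A had no match to the CHR in this window.

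The libraries held 17649090 to 27898889 counts, and CPM values below are counts scaled to a common library size with TMM. The targeted gene cannot check the labels, since CELF2 was counted 1 time in control replicate 1 and 0 times in each other library. Of the 15170 genes tested, 133 changed (0.877%): 41 fell in the knockdown (0.27%) and 92 rose (0.606%), by edgeR's quasi-likelihood test at an adjusted p under 0.05. Of these calls 69.2% were higher, against 53.4% of the 253 calls with an offset for GC content. All 10 keratinocyte markers were counted, with summed levels of 13479.8 and 21680.2 CPM in the controls and of 28927 and 21445 CPM in the knockdown; their part in the results below was not tested. Of 10 fibroblast markers 6 were at 0 counts in every library, COL1A2, COL3A1, LUM and DCN among them. The 10 summed to 15.1 and 19.0 CPM in the control libraries, against 39.4 and 23.6 CPM in the knockdown libraries. Most of these sums was COL1A1, at 13.1 and 16.1 CPM in the controls and at 37.5 and 20.7 CPM in the knockdown. Melanocyte markers (4 of 7 at 0) summed to 6.12 to 9.05 CPM, and endothelial and immune markers (3 of 9 at 0) to 0.238 to 2.06 CPM.

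Of the 67 members, 58 passed the low-count filter, and in none of these 58 did both libraries of a group lie under the level of the filter. The other 9 were not tested. KIF2B, KIF25, CENPVL1, CENPVL2 and CENPVL3 had 0 counts in every library, where 3 counts would correspond to 0.108 to 0.17 CPM. KIF19 had 4 counts in knockdown replicate 2 only, and CENPS-CORT, a readthrough of CENPS, had 1 count in control replicate 1 only. KIF5A, a transport kinesin of neurons, had control counts of 6 and 3 and knockdown counts of 1 and 10. KIF4B, an intronless copy of KIF4A, had control counts of 18 and 3 and knockdown counts of 1 and 2, and reads shared with KIF4A make both counts uncertain. Exon positions shared with another gene make 28 of the 58 tested members uncertain as well, because neither the strand setting nor the handling of shared reads is given in the sources used here.

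No member passed the test over all genes. Of the 58 tested members 0 changed (edgeR, smallest adjusted p = 0.0527, for KIFC1), against 0.877% of all tested genes. At an unadjusted p under 0.05 there were 29 members lower and 6 higher in the knockdown, where 9.97% of all tested genes were lower and 12.1% higher. The count depended on the test. DESeq2 called 24 members, 21 lower and 3 higher, where it called 9.14% of all tested genes, 4.05% lower and 5.09% higher, and limma-voom called 0 members and 0% of all genes. Leaving out control replicate 2, edgeR called 18 members (3.8% of all genes), and leaving out knockdown replicate 1 it called 2 (2.29%). Leaving out control replicate 1 it called 0 (0%), and leaving out knockdown replicate 2 it also called 0 (0.0444%). With other settings of the edgeR fit the members called were 1 with DESeq2 size factors (1.36% of all genes), 0 with upper quartile scaling (1.19%), 31 with no filter (8.25%) and 1 with the GC offset (1.67%). With the replicate number as a block they were 24 (10.4%), and 27 with the block and the GC offset (13%). Differences of members below are therefore given as levels and fitted values.

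All 11 tested mitotic kinesins were lower in both knockdown libraries than in both control libraries. Their log2 fold changes had a median of -1.46 and a range of -2.35 to -0.86. The classes were set with earlier results of these data known. KIF2A, which also acts at spindle poles, was placed among the other kinesins, and its groups overlapped. Over all tested genes the median was -0.0036, and 27.8% lay lower in the knockdown without overlap. The libraries stood in the same order for each of the 11: control replicate 1 was highest, as in 30.9% of all tested genes, and knockdown replicate 1 was lowest, as in 27.9%. DESeq2 called 11 of the 11 lower, against 4.05% of all tested genes, whereas the reported edgeR fit and limma-voom called 0. In a bulk sample, fewer dividing cells and less RNA per cell cannot be told apart.

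Spindle assembly needs motors that push the poles apart and motors that pull them together. KIF11 (Eg5), which slides antiparallel microtubules and separates the spindle poles, stood at 258 and 143 CPM in the controls and at 64.7 and 83.8 CPM in the knockdown, a log2 fold change of -1.43 ± 0.29 (SE). KIF15, which supports KIF11 in keeping the spindle bipolar, stood at 67.3 and 35.3 CPM and at 15.1 and 22.3 CPM. KIFC1 (HSET), the minus-end-directed motor that clusters spindle poles, stood at 242 and 145 CPM in the controls and at 59.0 and 77.7 CPM in the knockdown, a log2 fold change of -1.51 ± 0.27 (SE). The groups did not overlap for any of these 3 motors, though in CPM the controls of each lay farther apart than control replicate 2 and knockdown replicate 2.

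Motors of chromosome movement and microtubule length came next. KIF18A, which damps the oscillations of chromosomes at the metaphase plate, stood at 60.8 and 25.5 CPM in the controls and at 11.6 and 12.2 CPM in the knockdown, a log2 fold change of -1.86 ± 0.38 (SE). Its close relative KIF18B, which acts on astral microtubules, stood at 111 and 72.2 CPM and at 36.7 and 45.8 CPM. KIF2C (MCAK), which does not walk but takes microtubules apart and helps to correct faulty attachments, stood at 285 and 159.9 CPM in the controls and at 70.1 and 107 CPM in the knockdown. KIF22 (Kid), which pushes chromosome arms away from the poles, had the smallest fitted change of the class: 231 and 189 CPM in the controls against 107 and 125 CPM in the knockdown, a log2 fold change of -0.86 ± 0.18 (SE). KIF4A, a chromokinesin that also shortens the midzone microtubules, stood at 114 and 59.3 CPM and at 22.9 and 34.3 CPM. Again no knockdown library reached a control library.

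Kinesins of the midzone and of cytokinesis included the member with the largest fitted decrease. KIF23, which is on the list of mitotic kinesins, was not among the rows used here. KIF20A (MKLP2), which brings the chromosomal passenger complex to the midzone, stood at 327 and 122 CPM in the controls and at 37.3 and 50.8 CPM in the knockdown. Its log2 fold change was -2.35 ± 0.43 (SE), a 5.10-fold lower level that did not pass (edgeR, adjusted p = 0.0534). Without control replicate 1 its log2 fold change was -1.47. KIF14, which recruits citron kinase for abscission, stood at 109.9 and 49.5 CPM and at 16.1 and 27.4 CPM, and KIF20B (MPP1) at 152 and 74.6 CPM and at 40.5 and 48.9 CPM. For KIF20A the ratio of control replicate 1 to control replicate 2 was 2.68, more than for any other of the 11 tested mitotic kinesins, and for KIF22 it was 1.23, the least.

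**Figure D1:**
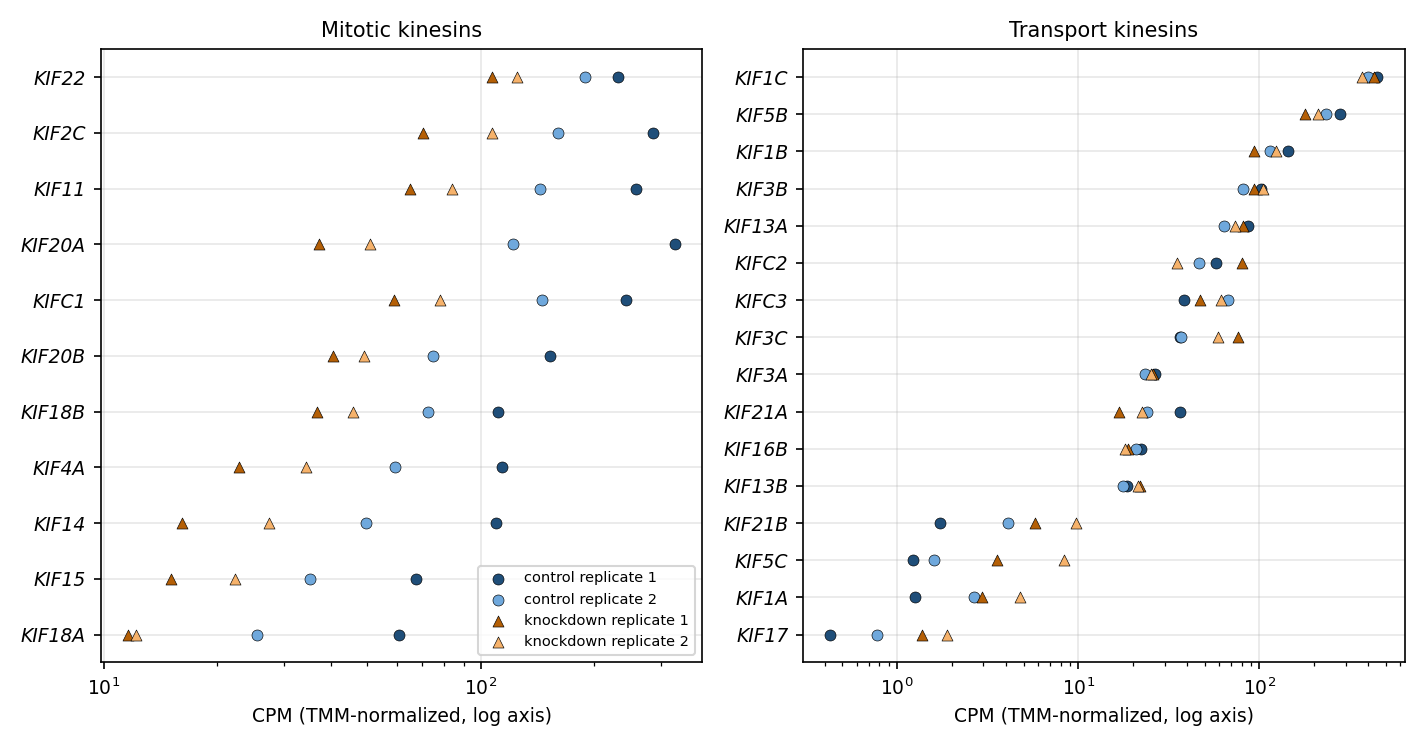
CPM of each tested mitotic kinesin (left) and transport kinesin (right) in the 4 libraries, on log axes, with circles for control and triangles for knockdown libraries. Every mitotic kinesin has both triangles left of both circles, whereas triangles and circles mix for 7 of the 16 transport kinesins.

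The transport kinesins had no common direction among the well-counted genes. Those averaging at least 20 CPM numbered 10, and their median log2 fold change was 0.04. Of these 7 overlapped between the groups, 2 (KIF5B and KIF21A) were lower and 1 (KIF3C) was higher in both knockdown libraries. Of all 7853 tested genes averaging at least 20 CPM, 3423 overlapped, 2721 were lower and 1709 were higher. KIF1C, a motor of the kinesin-3 family that carries vesicles and the most abundant kinesin in CPM, stood at 448 and 399 CPM in the controls and at 430.1 and 367 CPM in the knockdown, a log2 fold change of -0.09 ± 0.18 (SE). KIF5B, the ubiquitous conventional kinesin heavy chain, stood at 279 and 234 CPM in the controls and at 179 and 209.5 CPM in the knockdown, a log2 fold change of -0.40 ± 0.18 (SE). KIF1C overlapped between the groups, while KIF5B was lower in both knockdown libraries. KIF1B, which moves mitochondria and synaptic vesicle precursors, stood at 143 and 115 CPM and at 93.6 and 123 CPM. KIF13A, a carrier of endosomes and mannose-6-phosphate receptors, stood at 86.0 and 63.9 CPM and at 81.6 and 73.7 CPM.

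KIF3A and KIF3B pair as the kinesin-2 motor that also drives transport into cilia, and the groups overlapped for both. KIF3A stood at 26.6 and 23.5 CPM in the controls and at 26 and 25.2 CPM in the knockdown, and KIF3B at 102 and 81.3 CPM and at 93.1 and 105 CPM. KIF3C, the alternative partner of KIF3A that is best known from neurons, stood at 36.7 and 37.0 CPM in the controls and at 76.1 and 59.3 CPM in the knockdown. Its log2 fold change was 0.88 ± 0.19 (SE), and it did not pass (edgeR, adjusted p = 0.0646), though DESeq2 called it (adjusted p = 0.0043). The kinesin-2 subunits thus stood apart from each other in their fitted values, with 0.03 ± 0.19 for KIF3A and 0.11 ± 0.18 for KIF3B (SE). The difference between them was not tested.

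KIF21A, a motor that stops microtubule growth at the cell cortex, had the lowest fitted value of the class: 36.7 and 24.1 CPM in the controls against 16.9 and 22.4 CPM in the knockdown, a log2 fold change of -0.63 ± 0.27 (SE). KIF16B and KIF13B averaged just under 20 CPM. KIF16B, an endosome motor, stood at 22.1 and 20.9 CPM and at 18.8 and 18.2 CPM, and KIF13B at 18.6 and 17.6 CPM and at 21.9 and 21.5 CPM. KIFC2 and KIFC3 are minus-end-directed motors of the kinesin-14 family, like KIFC1, but are not known for spindle work in the same measure. KIFC2 spread from 35.3 to 80.05 CPM within the knockdown alone, and KIFC3 from 38.5 to 67.0 CPM within the controls. Their fitted values were 0.15 ± 0.35 and 0.04 ± 0.28 (SE), against -1.51 ± 0.27 for KIFC1, and were -0.23 and -0.12 with the GC offset.

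The tested transport kinesins with few counts were higher in both knockdown libraries. These were the 4 of the tested genes of the class with a mean under 10 CPM, KIF1A, KIF5C, KIF17 and KIF21B, all known mainly from neurons. KIF5C stood at 1.22 and 1.60 CPM in the controls and at 3.55 and 8.30 CPM in the knockdown, a log2 fold change of 2.08 ± 0.50 (SE) from 27 to 197 counts in a library. KIF21B stood at 1.72 and 4.10 CPM and at 5.77 and 9.77 CPM, and KIF1A at 1.25 and 2.67 CPM and at 2.96 and 4.76 CPM. KIF17 stood at 0.429 and 0.772 CPM and at 1.38 and 1.90 CPM. Control replicate 1 was the lowest library in each of the 4. Of all 5510 tested genes with such a mean, 1879 were higher without overlap and the median log2 fold change was 0.20, so low counts and the direction went together in the whole table as well. Over all 16 tested transport kinesins the median was 0.08, with 6 higher and 3 lower without overlap, against 27.1% and 27.8% of all tested genes. DESeq2 called 2 of the 16 higher (KIF3C and KIF5C) and 0 lower, against 5.09% and 4.05% of all tested genes. The reported edgeR fit and limma-voom called 0.

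**Figure D2:**
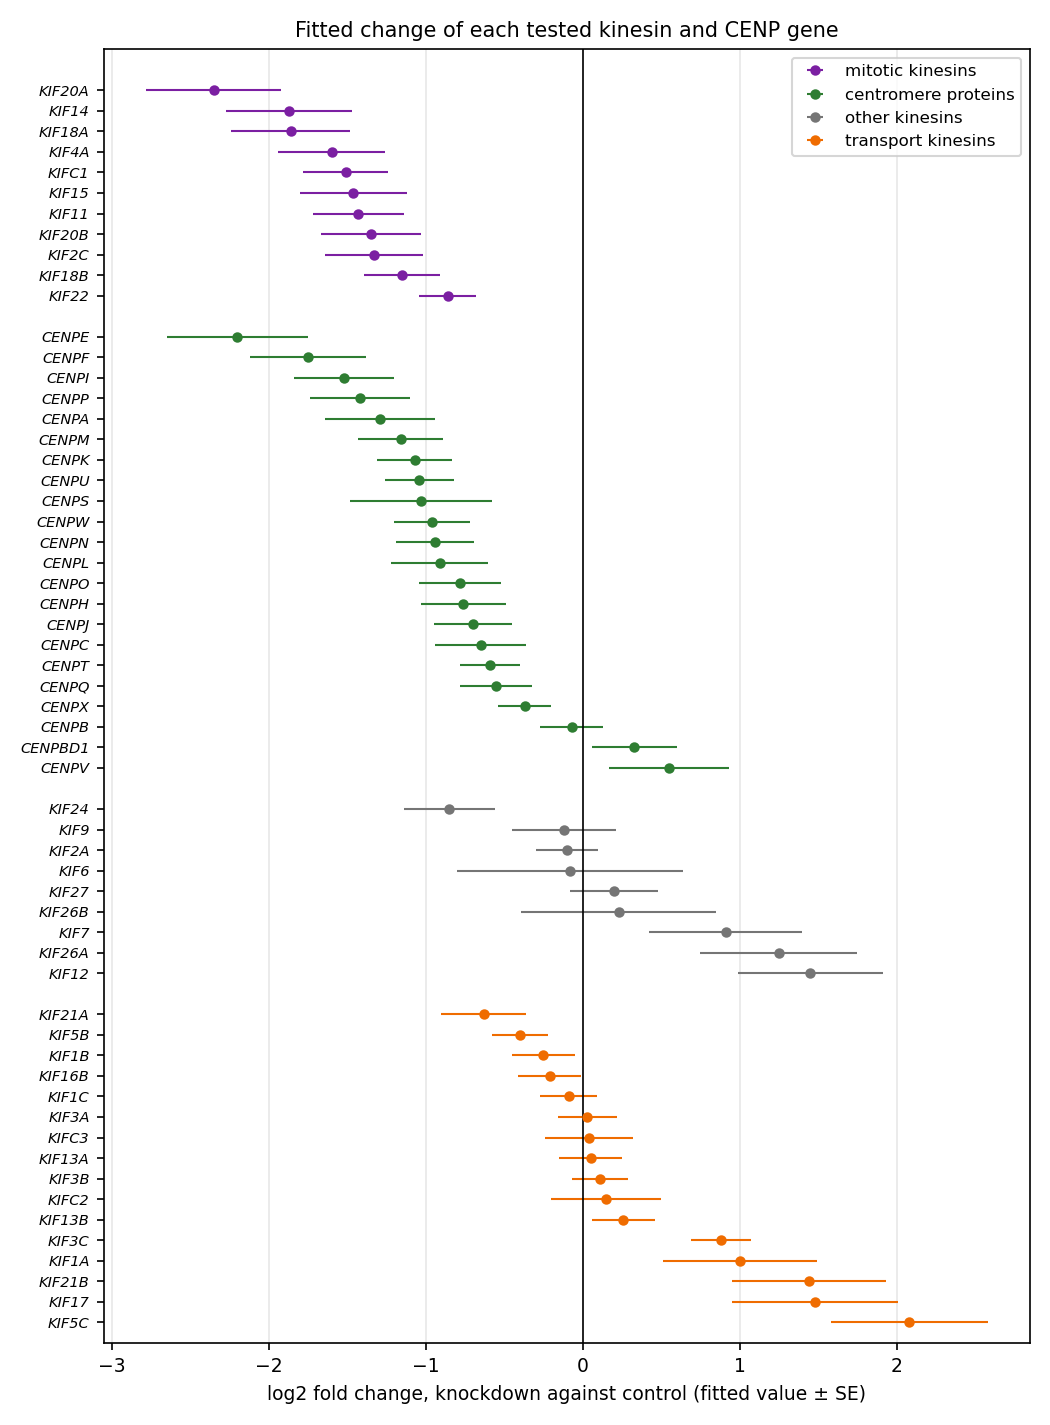
Fitted log2 fold change of the knockdown against the control for the 58 tested members, by class, with the standard error of the fit as bars. The mitotic kinesins lie between -2.35 and -0.86, the transport kinesins between -0.63 and 2.08.

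The other kinesins had mixed values. KIF24, which removes microtubules at centrioles and holds back cilium assembly, stood at 23.8 and 14.8 CPM in the controls and at 10.3 and 11.2 CPM in the knockdown, a log2 fold change of -0.85 ± 0.29 (SE). Of the 9 promoter windows of this class, only that of KIF24 held a CHR, and a link between the motif and the level was not tested. KIF2A, a depolymerising relative of KIF2C that acts at spindle poles and in neurons, stood at 47.0 and 39.7 CPM and at 35.7 and 45.5 CPM, a log2 fold change of -0.10 ± 0.20 (SE) beside -1.33 ± 0.31 for KIF2C. KIF12 stood at 1.97 and 2.85 CPM and at 8.88 and 4.21 CPM. DESeq2 called KIF12 higher, the only call among the 9, against 5.09% of all tested genes called higher. KIF26A stood at 2.36 and 6.54 CPM and at 12.8 and 8.04 CPM. KIF7, the Hedgehog regulator of the cilium tip, had a log2 fold change of 0.91 ± 0.49 (SE) at 0.751 to 2.19 CPM. KIF6, KIF9, KIF26B and KIF27 lay between -0.12 and 0.23.

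Within the members with KIF or KIFC names, the make-up of the counts differed between the groups. CENPE, a kinesin with a CENP name, is not part of these sums. Mitotic kinesins took 58.5% and 46.9% of the counts of these kinesins in the control libraries, against 27.6% and 34.0% in the knockdown libraries. The sum over the transport kinesins was 1299.6 and 1139 CPM in the control libraries, against 1177 and 1147 CPM in the knockdown libraries, whereas the sum over the mitotic kinesins was 1960.2 and 1075 CPM and then 481 and 635 CPM. The ratio of mitotic to transport counts, which does not depend on the scaling of a library, was 1.51 and 0.944 in the control libraries, against 0.409 and 0.553 in the knockdown libraries. These ratios are a description and were not tested.

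**Figure D3:**
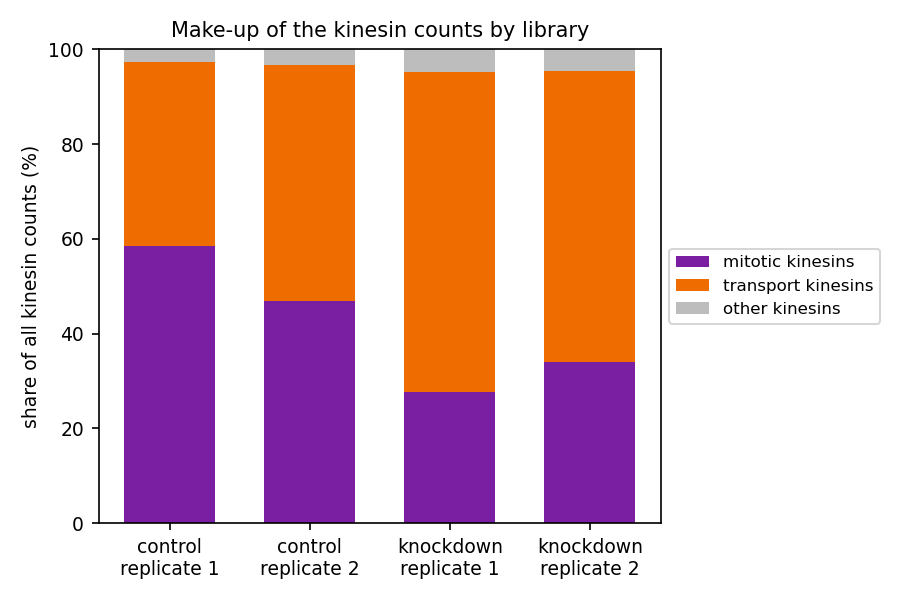
Share of all kinesin counts (%), over the members with KIF or KIFC names, taken by mitotic, transport and other kinesins in each library, as stacked bars from 0. The mitotic share is 46.9% or more in the control libraries and 34.0% or less in the knockdown libraries.

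Levels of kinesins can be compared per kilobase of exon (GENCODE v29). In the controls KIF2C, KIFC1 and KIF20A led with means of 61.0, 58.0 and 56.7 CPM per kb, followed by KIF1C (49.3), KIF22 (48.7), KIF5B (43.6) and KIF11 (41.3). The controls were too far apart to order these genes, since KIF1C led in control replicate 2, and KIF2C ran from 43.8 to 78.2 CPM per kb and KIF1C from 46.5 to 52.2. In the knockdown KIF1C led with 46.5 CPM per kb, followed by KIF5B with 33.0, KIF22 with 26.9 and KIF2C with 24.2. There KIF1C, at 42.8 and 50.1 CPM per kb, was above KIF5B, at 30.4 and 35.6, in each library, and KIF5B was above KIF22, at 24.9 and 28.9.

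The genes with CENP names followed the mitotic kinesins in direction, with a smaller median. Of 26 such genes 22 were tested, 0 changed (edgeR quasi-likelihood test, 16 at an unadjusted p under 0.05, against 9.97% of all tested genes, and 10 called lower by DESeq2, against 4.05%), and the median log2 fold change was -0.93. Of the 22, 19 were lower in the knockdown without overlap, against 27.8% of all tested genes, and 1 was higher, against 27.1%. CENP-A, the histone H3 variant that defines the centromere, is encoded by CENPA, which stood at 59.6 and 30.8 CPM in the controls and at 14.3 and 22.6 CPM in the knockdown, a log2 fold change of -1.29 ± 0.35 (SE). CENPB, whose product binds a DNA box in centromeric satellite repeats, stood at 113 and 97.0 CPM and at 115 and 85.3 CPM. CENPA was lower in both knockdown libraries, while the groups overlapped for CENPB, with a log2 fold change of -0.07 ± 0.20 (SE).

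The 2 large proteins of the outer kinetochore had the largest fitted decreases of the CENP genes. CENPE, itself a kinesin that carries chromosomes to the metaphase plate, stood at 242 and 87.0 CPM in the controls and at 29 and 42.4 CPM in the knockdown, a log2 fold change of -2.20 ± 0.45 (SE). CENPF, which binds microtubules and dynein regulators at the kinetochore, stood at 378 and 168 CPM and at 67.8 and 94.2 CPM, a log2 fold change of -1.75 ± 0.37 (SE). Neither passed (edgeR, adjusted p = 0.0617 for CENPE and 0.0620 for CENPF). Control replicate 1 exceeded control replicate 2 by 2.78-fold for CENPE and 2.26-fold for CENPF, and without control replicate 1 the log2 fold changes were -1.29 and -1.06.

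The constitutive centromere network, the inner kinetochore complex that sits on CENP-A chromatin, had all 15 of its listed genes tested. All 15 were lower in both knockdown libraries than in both controls, with a median of -0.94 and a range of -1.52 to -0.37, and 7 were called lower by DESeq2. Of all tested genes 27.8% were lower without overlap and 4.05% were called lower by DESeq2. The reported edgeR fit and limma-voom called 0 of the 15. CENPC, the blueprint protein that links the nucleosome to the outer kinetochore, stood at 32.3 and 19.2 CPM in the controls and at 14.9 and 18.1 CPM in the knockdown. In the CENP-H, I, K and M subcomplex, CENPI stood at 31.0 and 19.9 CPM and at 6.91 and 10.8 CPM, a log2 fold change of -1.52 ± 0.32 (SE). Its partners CENPM, CENPK and CENPH had log2 fold changes of -1.16, -1.07 and -0.76. CENPL and CENPN, which pair and of which CENP-N reads the CENP-A nucleosome, had -0.91 and -0.94.

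In the CENP-O, P, Q and U subcomplex the fitted values ranged from -1.42 ± 0.32 for CENPP to -0.55 ± 0.23 for CENPQ (SE), with -1.04 for CENPU and -0.78 for CENPO. CENPP stood at 13.3 and 8.79 CPM in the controls and at 4.15 and 4.13 CPM in the knockdown. The histone-fold proteins CENP-T, W, S and X form a further complex that holds the NDC80 complex. CENPW stood at 36.1 and 29.6 CPM and at 13.8 and 19.8 CPM, a log2 fold change of -0.96 ± 0.24 (SE), and CENPT at 71.1 and 64.0 CPM and at 50.1 and 39.5 CPM, with -0.59 ± 0.19. CENPX, which also works with CENP-S in the Fanconi pathway, had the smallest fitted change: 50.9 and 53.3 CPM in the controls against 40.3 CPM in each knockdown library, with -0.37 ± 0.17 (SE). CENPS was rare, at 2.43 and 1.72 CPM and at 1.04 and 1.01 CPM. CENPX was also the only one of the 15 in which control replicate 1 was not the highest library.

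**Figure D4:**
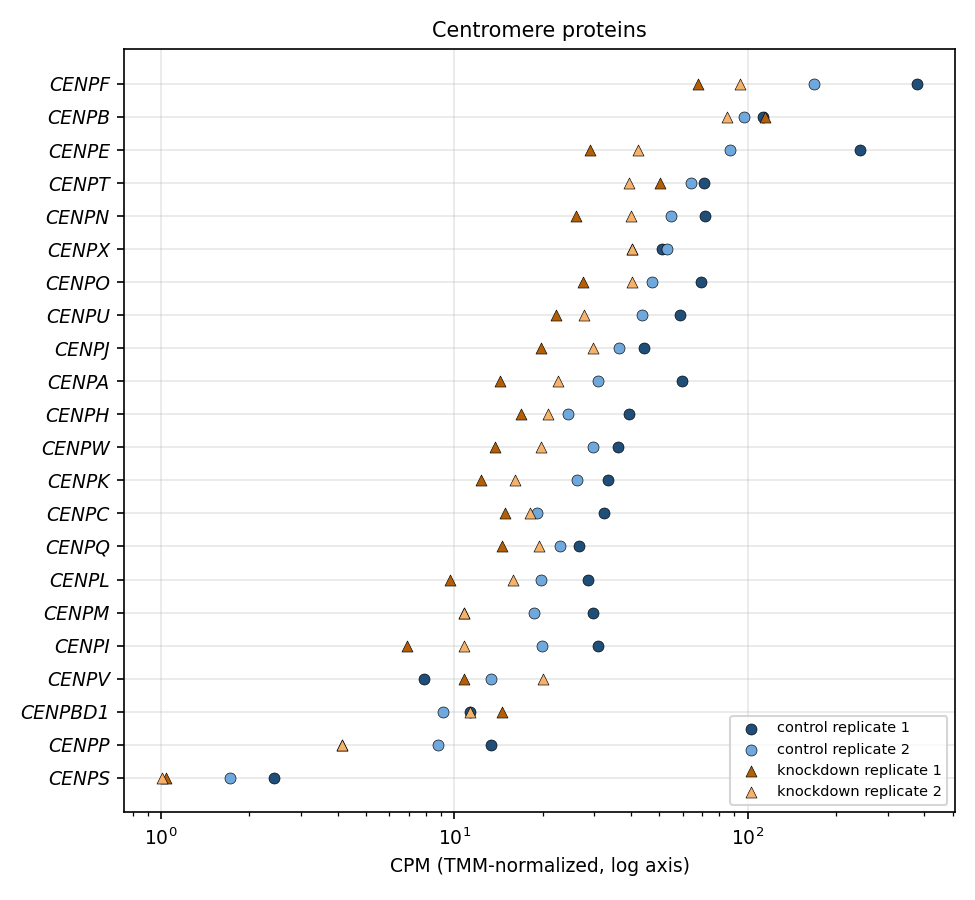
CPM of the 22 tested genes with CENP names in the 4 libraries, on a log axis, with circles for control and triangles for knockdown libraries. Triangles lie left of both circles for 19 of the 22, and CENPB, CENPV and CENPBD1 are the exceptions.

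The remaining CENP names belong to proteins of other places. CENPJ, a centriole protein that sets centriole length, stood at 44.2 and 36.4 CPM in the controls and at 19.7 and 29.8 CPM in the knockdown, a log2 fold change of -0.70 ± 0.25 (SE). CENPV, found at the spindle midzone and on microtubules, stood at 7.90 and 13.3 CPM and at 10.8 and 20 CPM, and CENPBD1, a gene with a CENP-B-type DNA-binding domain, at 11.3 and 9.15 CPM and at 14.5 and 11.3 CPM. CENPV overlapped between the groups, and CENPBD1 was higher in the knockdown by less than 1 CPM in its closest pair of libraries. Per kilobase of exon, CENPW (41.3), CENPB (37.0) and CENPX (34.0) had the highest mean CPM in the controls, and CENPB (35.2), CENPX (26.3) and CENPW (21.2) in the knockdown.

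The spread between the controls moved with the class. The median ratio of control replicate 1 to control replicate 2 was 1.91 for the 11 mitotic kinesins, 1.37 for the 22 CENP genes, 1.09 for the 16 transport kinesins and 1.02 for all tested genes. The ratio of knockdown replicate 2 to knockdown replicate 1 was 1.32, 1.32, 1.15 and 0.997 in the same order. The median log2 fold change of the mitotic kinesins was -0.95 when control replicate 1 was left out and -1.81 when control replicate 2 was. It was -1.25 when knockdown replicate 1 was left out and -1.72 when knockdown replicate 2 was. For the CENP genes these medians, in the same order, were -0.68, -1.09, -0.69 and -1.13, and for the transport kinesins 0.27, -0.01, 0.11 and 0.08.

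Partners of the members, from lists that hold no member, split along the same line. Like the classes, these lists were set with earlier results of these data known. Of 20 genes that encode other kinetochore proteins, 1 fell (ZWINT) and 19 did not pass (edgeR quasi-likelihood test, 0.27% of all tested genes lower), and all 20 were lower without overlap, against 27.8% of all tested genes, at a median log2 fold change of -1.03. DESeq2 called 11 of the 20 lower, against 4.05% of all tested genes. No gene of the table, ZWINT included, was called by limma-voom or by edgeR without control replicate 1. ZWINT, which anchors checkpoint proteins at the kinetochore, stood at 101 and 77.7 CPM in the controls and at 36.5 and 40.7 CPM in the knockdown. NUF2, NDC80 and BUB1B, of the microtubule-binding complex and the spindle checkpoint, had log2 fold changes of -1.52, -1.65 and -1.74. Of 18 kinesin light chains, cargo adaptors, dynein and dynactin genes 0 changed by edgeR's quasi-likelihood test, and their median log2 fold change was -0.03. At an unadjusted p under 0.05 in that test there were 4 higher and 0 lower, against 12.1% and 9.97% of all tested genes. DESeq2 called 2 higher and 0 lower, against 5.09% and 4.05% of all tested genes, and limma-voom called 0. Of the 18, 9 overlapped between the groups, as did 6839 of all 15170 tested genes. A further 5 were lower and 4 higher without overlap, against 27.8% and 27.1% of all tested genes. KLC4, a kinesin light chain, and TRAK1, an adaptor for mitochondria, stood at 24.8 and 31.0 CPM and at 47.7 and 46.6 CPM in the controls. In the knockdown they stood at 58.6 and 47.1 CPM and at 79.1 and 66.5 CPM.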

How the data were processed

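Per the labels' protocols, polyA RNA from SCC13 cells was made into TruSeq libraries. The authors deposited raw read counts per Ensembl gene, 1 column per library. HISAT2, edgeR and GRCh38 are named in the submitters' processing notes; the sources used here do not name the counting program, annotation release or strand setting. Groups came from the sample titles.

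Counts were tested with edgeR 4.0.16 in R 4.3.3 (TMM, filterByExpr at a minimum count of 10, quasi-likelihood test, Benjamini-Hochberg adjustment over 15170 tested genes at 0.05), a fit checked on simulated data. DESeq2 1.42.0 and limma 3.58.1 (voom) were alternatives, beside other scalings, no filter, left-out libraries, a replicate block and a GC offset. Errors are SE of the fit, n = 2 libraries per group. Named were all tested members of the mitotic kinesins, centromere network, CENPA, CENPB, CENPE and CENPF, other kinesins from a mean of 20 CPM, and the extremes of each class; other members, all under 20 CPM or with another CENP name, were named after their values were seen. The members, their classes and the lists were chosen with earlier results of these data known. Exon lengths came from GENCODE v29 (58542 of 60617 IDs matched), promoters from RefSeq (GRCh38.p14). Printed promoters had the smallest p among members with a mean of at least 20 CPM, a window at the RefSeq gene start and at most 30 annotated exon bases in the stretch, taking for mitotic kinesins also whether a CHR was in it.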

Additional observations from a re-analysis of the deposited data

How the results depend on the processing

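Outside the fits with a library left out, the median log2 fold change of the mitotic kinesins ran from -1.30 to -1.46 and that of the CENP genes from -0.81 to -0.96. The transport kinesin median moved from 0.08 to 0.27 without control replicate 1, and to -0.01 without control replicate 2. The number of members called moved from 0 to 1 with DESeq2 size factors in the edgeR fit (KIFC1), to 1 with the GC offset (KIFC1), to 24 with the DESeq2 test and to 31 with no filter on low counts; it was 0 with upper quartile scaling and with limma-voom. With a library left out it ranged from 0 to 18. With the replicate block 24 members were called, and 27 with the replicate block and the GC offset together; same-numbered libraries deviated with a correlation of 0.20 over genes, and the labels do not say that a number marks a shared culture. Over all genes the 133 calls became 207 with DESeq2 size factors, 181 with upper quartile scaling, 253 with the GC offset, 1386 with the DESeq2 test, 2139 with no filter, 0 with limma-voom, 1579 with the replicate block and 1972 with the block and the GC offset, and 0 to 616 with a library left out. The share of called genes that were higher was 69.2% in the reported fit, 74.6% with upper quartile scaling, 63.3% with DESeq2 size factors, 62.8% with no filter, 60.3% with the replicate block, 53.4% with the GC offset (with the block as well), 55.7% with DESeq2, 56.2% without control replicate 2, 59.5% without knockdown replicate 1 and 100% of 7 calls without knockdown replicate 2. The causes were not tested.

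Values near 0 changed sign, also those of KIF6 and KIF26B, members with few counts, when a control library was left out. Over the fits with a library left out, CENPB ran from -0.29 to 0.12, KIF13A from -0.13 to 0.27, KIF1C from -0.19 to 0.02, KIF2A from -0.28 to 0.08, KIF3A from -0.04 to 0.12, KIF3B from -0.03 to 0.28, KIFC2 from -0.55 to 0.62 and KIFC3 from -0.31 to 0.51. The GC offset gave KIF2A 0.06, KIFC2 -0.23 and KIFC3 -0.12, and with the replicate block 0.06, -0.25 and -0.13. None of the mitotic kinesins changed sign in these fits. Where 1 library of a group remained, it was taken to vary like the other group. Members at 0 counts were not detectable below 0.108 to 0.17 CPM.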

Other observations

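Some rows that carry a KIF or CENP name were left out by the form of their names, 13 in all. Raw counts are not scaled to library size. KIF1BP, which the name rule removes although it encodes a protein that binds kinesins and holds them off microtubules, had control counts of 1451 and 864 and knockdown counts of 928 and 1152. In CPM it stood at 51.9 and 51.3 in the controls and at 45.8 and 48.5 in the knockdown, a log2 fold change of -0.13. KIF1BP is also 1 of the 18 cargo partners above. CENPBD1P1, a transcribed pseudogene, had control counts of 799 and 441 and knockdown counts of 427 and 449. KIF9-AS1 had 36 and 28 counts and then 43 and 25, and the other 10 rows had at most 1 count in any library.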
